A study of Danio rerio with 8 samples.

Results

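Hearts taken at 2 times after ablation of ventricular cardiomyocytes were compared in adult zebrafish by bulk RNA sequencing. The comparison sets 2 libraries from 7 days post injury (dpi) against 2 libraries from 3 dpi, chosen by their sample labels, which is 4 of the 8 libraries of the series. The 7 dpi and the 3 dpi fish received 5 mM metronidazole in 0.1% dimethyl sulfoxide for 48 hours. The line named for the ablation, vmhc:mCherry-NTR, expresses a bacterial nitroreductase from the promoter of the ventricular myosin gene vmhc, and that enzyme turns metronidazole into a toxin. Cells that do not use this promoter were therefore not the target, and the labels name this line for the study without tying it to single samples. Levels in 2 control libraries, from adults given 0.1% dimethyl sulfoxide alone and labelled 0 dpi, are given beside the results. The remaining 2 libraries came from untreated young hearts at 3 days of age, with about 500 hearts pooled in each. They entered the fit only for its gene filter, scaling and spread. Adults were about 6 months old, and each adult library pooled 4 to 6 hearts, so a library is a pool and not a fish. The labels do not say that the pools came from separate experiments, so p-values here cover variation from pool to pool, which may be technical. The labels name no group given metronidazole without the ablation transgene. The title of the series is about mTOR activity primed by amino acids, and the comparison asks which early injury programmes were lower, and which programmes were higher, at the later time.

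The zebrafish heart replaces lost muscle. In the first days after injury, wound cells secrete cytokines, proteases open the matrix, macrophages and neutrophils arrive, and the epicardium lays down a provisional matrix of fibronectin and versican. Surviving cardiomyocytes then disassemble part of their sarcomeres, lower oxidative metabolism and divide. Later the wound signals fade, and muscle cells rebuild sarcomeres and mitochondria.

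The 7 dpi libraries stood apart from the other adult libraries in several properties that are not single genes. Their total counts were 26204332 and 26628897, against 11856744 and 14190080 at 3 dpi, yet they held counts for 18744 and 17785 genes, against 20801 and 21552 at 3 dpi. Thinned to the size of the smallest library, they still held 17540 and 17053 genes, against 20675 and 21103. The 100 most abundant genes took 60.7% and 61.8% of the counts at 7 dpi, against 28.1% and 32.8% at 3 dpi. Mitochondrially encoded genes took 24.7% and 28.2% at 7 dpi, against 7.14% and 9.54% at 3 dpi. Genes of small proteins outside the ribosome and the respiratory chain had a higher median log2 count than genes of giant proteins outside the sarcomere by 2.36 and 2.19 at 7 dpi, whereas that difference was -0.45 and -0.61 at 3 dpi. The column names of the 7 dpi libraries carry a run prefix of their own, while 3 dpi and control share another prefix, although per the labels' protocols all were sequenced at once. Run and time therefore cannot be told apart, and no fit with a run term exists.

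**Figure D1:**
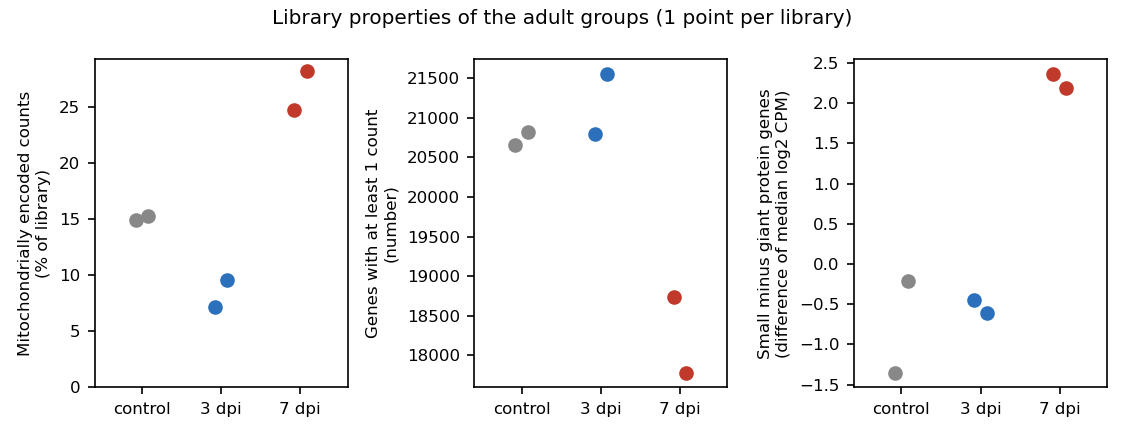
Each point is 1 library of control, 3 dpi or 7 dpi hearts. The panels show the percentage of counts in mitochondrially encoded genes, the number of genes with at least 1 count, and the difference in median log2 CPM between genes of small and of giant proteins; both 7 dpi libraries lie outside the range of the other 4 in all 3 panels.

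Much of the transcriptome differed between the 2 times. Of 19330 genes tested, 4410 rose (22.8%) and 5430 fell (28.1%) at 7 dpi, which is 9840 in all (50.9%), by edgeR's quasi-likelihood test at an adjusted p under 0.05. The libraries of the 2 times did not overlap in 14137 genes (73.1%). Levels are CPM, the count per gene relative to library size scaled by TMM, a method that assumes most genes do not differ. Because a few genes filled much of the 7 dpi libraries, the TMM factors were 0.418 and 0.453 at 7 dpi, against 1.46 and 1.36 at 3 dpi, so a CPM value at 7 dpi is more than the plain share of the library would give. The median log2 fold change over all genes was -0.21 with TMM and -1.89 with plain library totals, and the share of called genes that rose was 44.8% and 6.2%. Against control, 3617 genes were higher (18.7%) and 3870 lower (20%) at 7 dpi, while at 3 dpi 1749 were higher (9.05%) and 1267 lower (6.55%); both use the same control libraries. Every rise below is therefore a rise relative to the bulk of genes, and lists are set beside the all-gene median of -0.21. Counts of list members that rose or fell stand against 22.8% and 28.1% over all genes.

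**Figure D2:**
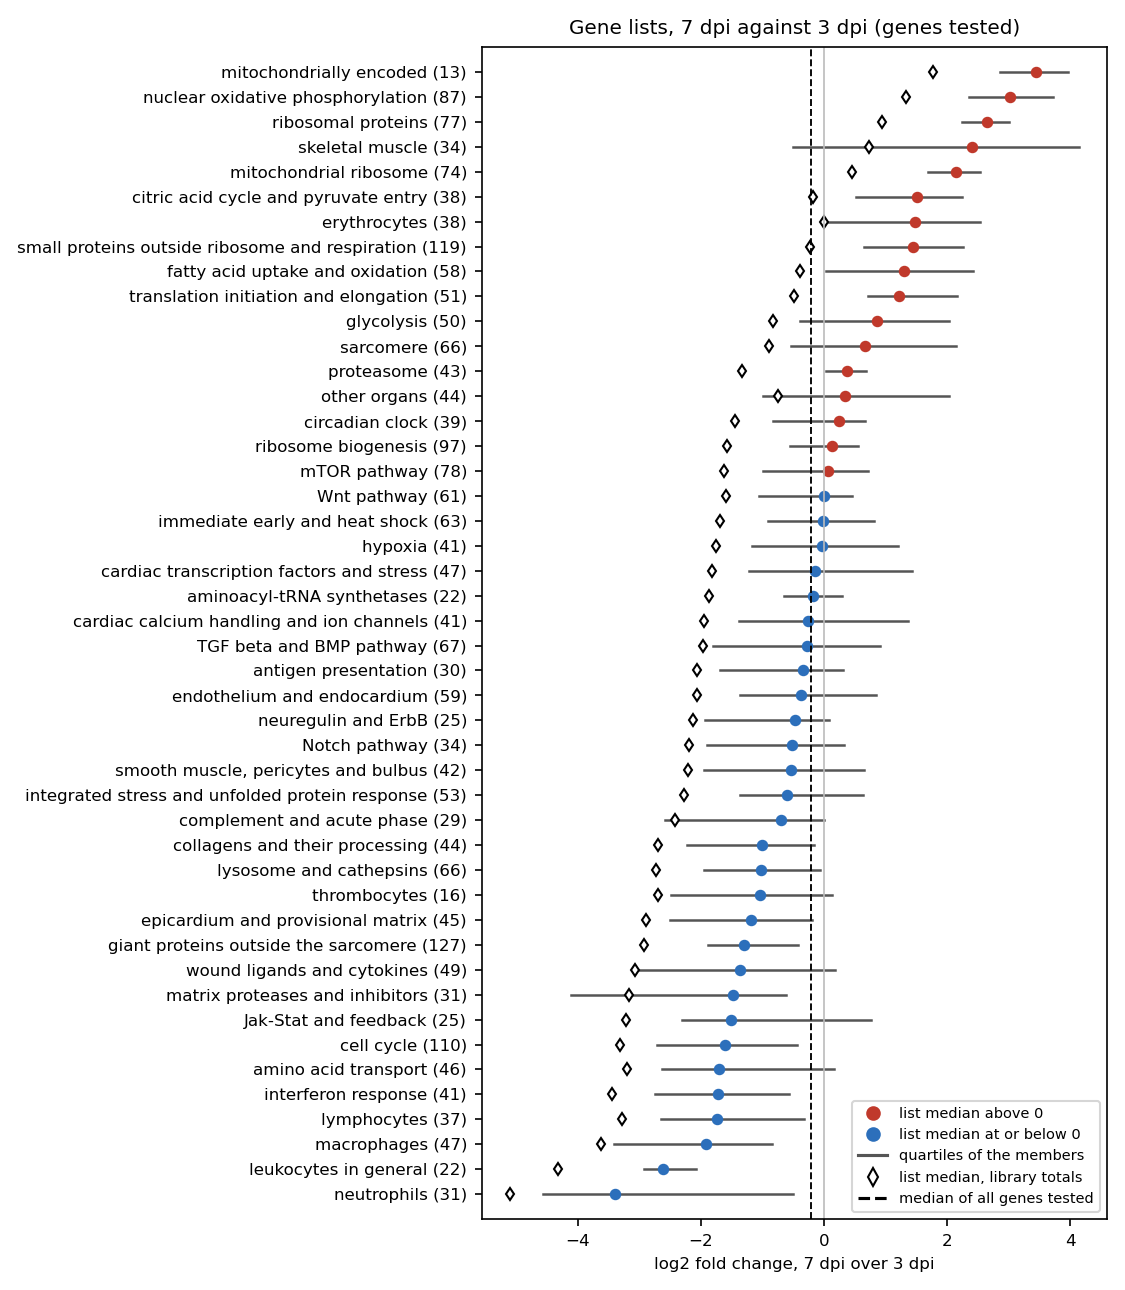
Filled points are the median log2 fold change of each gene list, 7 dpi over 3 dpi, with the quartiles of its members as lines and the number of genes tested in parentheses. Diamonds show the same medians under library totals and the dashed line the median of all genes, -0.21; immune, wound and cell cycle lists lie to its left and respiratory and ribosomal lists to its right.

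The endogenous vmhc transcript did not pass between the times. vmhc (ENSDARG00000079564) stood at 710 and 856 CPM at 7 dpi, against 1050 and 545 CPM at 3 dpi (log2 fold change -0.03, SE 0.31, adjusted p = 0.969). Its 7 dpi values lay within the range of the 3 dpi values on this scale. Under library totals, where the all-gene median was -1.89, vmhc was lower in both 7 dpi libraries than in both 3 dpi libraries. In control hearts vmhc stood at 202 and 220 CPM. Reads of the transgene were not analysed here, so this level does not measure the ablation. The labelled tissue held its defining transcripts at both times: cmlc1, a cardiac myosin light chain gene, stood at 61106 and 38404 CPM at 7 dpi, against 2489 and 4782 CPM at 3 dpi.

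Of the secreted wound signals, more fell than rose at 7 dpi, and some by large factors. Among 49 ligands and cytokines tested, 24 fell and 5 rose, with a median log2 fold change of -1.36, and without 7 dpi replicate 1 the number that fell was 15. il11a (ENSDARG00000037859), the cytokine interleukin 11, had 1 count in all at 7 dpi, against 7142 counts at 3 dpi, where it stood at 268 and 130 CPM. The ratio of 3 dpi to 7 dpi was 4494 (95% counting interval 806.3 to 177500). Its paralog il11b had 1 count at 7 dpi, against 728 at 3 dpi, a ratio of 458.1 (82.0 to 18120). The leptin gene lepb also had 1 count at 7 dpi, against 3028 at 3 dpi, but its 3 dpi libraries were unequal, at 160 and 13.7 CPM. In control hearts il11a stood at 1.23 and 0.236 CPM and lepb at 0.246 and 0.059 CPM, also far below 3 dpi. igf2b, an insulin-like growth factor, fell to 24.0 and 34.2 CPM at 7 dpi, against 220 and 196 CPM at 3 dpi (log2 fold change -2.84, SE 0.24, adjusted p = 3.23e-05). Its control level was 78.5 and 87.3 CPM, above the 7 dpi level. Growth factor pdgfba fell by 3.08 on the log2 scale (SE 0.31). Among the 5 that rose was mdkb, midkine, at 32.3 and 55.5 CPM at 7 dpi, against 4.51 and 7.11 CPM at 3 dpi (2.91, SE 0.42). The intervals cover counting error only. In pooled tissue, fewer cells of a type and less RNA per cell cannot be told apart, here or in any result below.

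Among the receptors, kinases and factors that read interleukin 11 and its relatives, more fell than rose. In the Jak-Stat list 14 of 25 genes fell (56%, against 28.1% over all genes) and 6 rose (24%, against 22.8%), with a median of -1.51. il6st, the shared receptor subunit gp130, stood at 36.4 and 35.5 CPM at 7 dpi, against 231 and 277 CPM at 3 dpi (-2.82, SE 0.29, adjusted p = 5.66e-05). stat3, the transcription factor downstream of it, stood at 11.8 and 12.9 CPM at 7 dpi, against 86.2 and 90.8 CPM at 3 dpi (-2.84, SE 0.33). The kinase gene tyk2 fell by 3.77 (SE 0.37). The kinase gene jak2a, chosen after its values were seen, was instead higher, at 214 and 306 CPM at 7 dpi, against 117 and 126 CPM at 3 dpi (1.1, SE 0.26, adjusted p = 0.00501), but was -0.58 under library totals and did not pass without 7 dpi replicate 2 (0.80, adjusted p = 0.0642). Its paralog jak2b did not pass (0.35, SE 0.21, adjusted p = 0.197) and was -1.35 under library totals. Another member moved up: cebpd, a stress-induced transcription factor gene, stood at 787 and 686 CPM at 7 dpi, against 125 and 89.9 CPM at 3 dpi (2.78, SE 0.25). il6st, stat3 and tyk2 were lower at 7 dpi than in control in the same fit, with adjusted p of 0.002, 0.001 and 0.00056.

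Proteases and their inhibitors were lower at 7 dpi in most cases. Of 31 tested, 19 fell and 2 rose, with a median of -1.47, or -1.37 with genes near 0 counts at their bound. The urokinase gene plaua stood at 0.365 and 0.415 CPM at 7 dpi, against 39.3 and 40.4 CPM at 3 dpi (-6.65, SE 0.38, adjusted p = 1.44e-05). adam8a, a protease of white blood cells, stood at 2.56 and 2.66 CPM at 7 dpi, against 313 and 228 CPM at 3 dpi (-6.70, SE 0.34). The gelatinase gene mmp9 stood at 0.913 and 2.41 CPM at 7 dpi, against 31.3 and 52.4 CPM at 3 dpi (-4.63, SE 0.42; -5.53 without 7 dpi replicate 2). No library of one time reached a value of the other time for these 3 genes, as in 73.1% of all genes. They were named for a small p, so this is no further support.

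**Figure D3:**
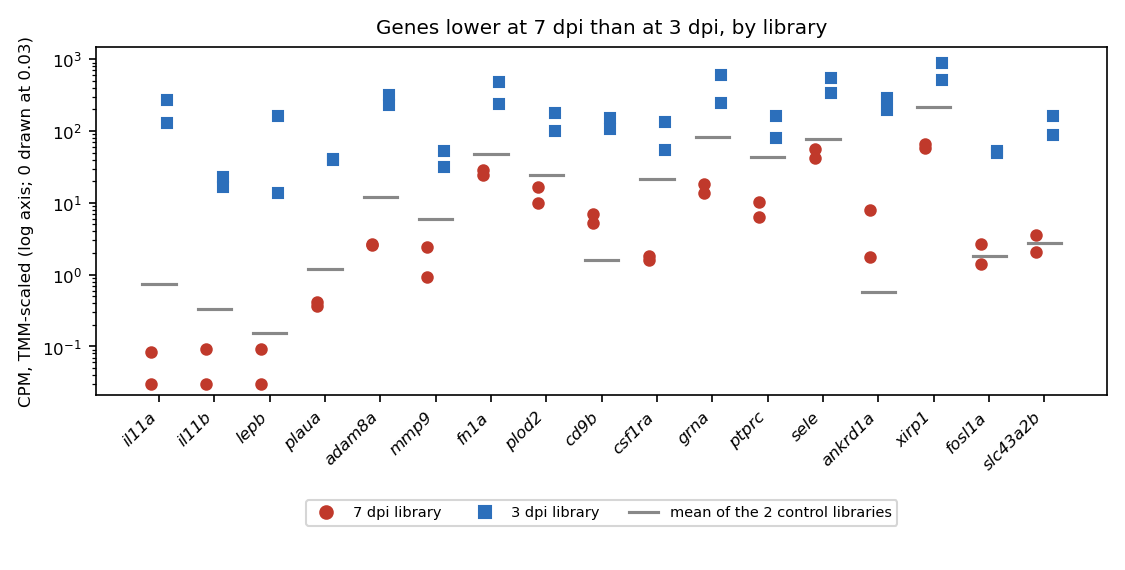
Each point is the CPM of 1 gene in 1 library on a log axis, circles for 7 dpi and squares for 3 dpi, with a grey line at the mean of the 2 control libraries. Each gene shown is lower in both 7 dpi libraries than in both 3 dpi libraries, and slc43a2b, at 2.1 and 3.57 CPM at 7 dpi, lies near its control mean.

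Genes of the epicardium and its provisional matrix mostly fell. Of 45 tested, 27 fell and 3 rose, median -1.18. The fibronectin gene fn1a stood at 28.6 and 24.4 CPM at 7 dpi, against 480 and 240 CPM at 3 dpi (-3.76, SE 0.38, adjusted p = 5.44e-05), and in control at 56.7 and 40.4 CPM. The versican gene vcanb stood at 14.5 and 19.7 CPM at 7 dpi, against 96.1 and 97.3 CPM at 3 dpi (-2.50, SE 0.23). Its control level was 10.9 and 8.96 CPM, so vcanb was still higher at 7 dpi than in control (adjusted p = 0.0194). tnc, tenascin C, chosen after its values were seen, was at 1.28 and 1.16 CPM at 7 dpi, against 32.0 and 6.49 CPM at 3 dpi (-3.97, SE 0.70, or -2.42 without 3 dpi replicate 1 and -4.72 without replicate 2). Another gene chosen in that way, postnb, a periostin gene, gave 133 and 155 CPM at 7 dpi, against 146 and 118 CPM at 3 dpi, and did not pass (0.13, SE 0.29, or -1.57 under library totals). sparc, a collagen-binding matrix protein gene, rose to 693 and 922 CPM at 7 dpi, against 257 and 269 CPM at 3 dpi (1.62, SE 0.34), a rise that became -0.06 under library totals.

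Among collagen genes, more fell than rose. Of 44 collagens and processing enzymes, 19 fell and 4 rose, median -1.01 (-0.94 at the bounds). plod2, a lysyl hydroxylase of collagen crosslinks, stood at 9.86 and 16.6 CPM at 7 dpi, against 177 and 101 CPM at 3 dpi (-3.39, SE 0.39). col5a1 fell to 52.6 and 67.1 CPM at 7 dpi, against 282 and 178 CPM at 3 dpi (-1.94, SE 0.27). col1a1b, of collagen type I, stood at 604 and 604 CPM at 7 dpi, against 804 and 606 CPM at 3 dpi, and did not pass (-0.22, SE 0.26, adjusted p = 0.503). pcolcea, an enhancer of procollagen processing, rose to 299 and 330 CPM at 7 dpi, against 99.9 and 115 CPM at 3 dpi (1.55, SE 0.24), which became -0.13 under library totals. Across the proteases, the provisional matrix and the collagens, the counts of members that fell (61.3%, 60% and 43.2% of those tested) stand against 28.1% over all genes. Genes of giant proteins outside the sarcomere fell in 62.2% of those tested (median -1.3). The part of protein size in the protease, matrix and collagen lists was not tested.

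Markers of macrophages and of white blood cells in general were mostly lower at 7 dpi. Of 47 macrophage markers, 35 fell and 0 rose by edgeR, median -1.91, or -1.13 without 3 dpi replicate 1, where 1 rose. Under library totals 45 fell and 0 rose. csf1ra, the receptor that macrophages need to survive, stood at 1.83 and 1.58 CPM at 7 dpi, against 133 and 55.0 CPM at 3 dpi (-5.79, SE 0.52, adjusted p = 4.00e-05; -5.03 without 3 dpi replicate 1). In control csf1ra stood at 27.4 and 15.5 CPM. The progranulin gene grna stood at 13.5 and 18.3 CPM at 7 dpi, against 602 and 250 CPM at 3 dpi (-4.74, SE 0.41; -3.98 without 3 dpi replicate 1). cd9b, a tetraspanin gene, stood at 5.21 and 7.05 CPM at 7 dpi, against 150 and 107 CPM at 3 dpi (-4.39, SE 0.39), and in control at 0.737 and 2.42 CPM. mpeg1.1, perforin of macrophages, chosen after its values were seen, was at 28.1 and 19.0 CPM at 7 dpi, against 175 and 83.0 CPM at 3 dpi (-2.45, SE 0.36; -1.83 without 3 dpi replicate 1). The protease gene lgmn stood at 355 and 350 CPM at 7 dpi, against 1186 and 547 CPM at 3 dpi (-1.30, SE 0.37, adjusted p = 0.013). That call was lost without either 7 dpi library (adjusted p = 0.0691 and 0.0705) and without 3 dpi replicate 1 (-0.65, adjusted p = 0.124). The summed level of the list was 1661 and 1730 CPM at 7 dpi, against 6627 and 3265 CPM at 3 dpi, and in control 1207 and 1520 CPM. The list had counts for 46 and 45 of 48 members at 7 dpi, so the markers were low but mostly present, and no tested member was at 0 in both 7 dpi libraries.

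Of 22 genes of leukocytes in general, 20 fell and 1 rose, median -2.62, or -2.02 without 3 dpi replicate 1. ptprc, the leukocyte antigen CD45, stood at 10.3 and 6.39 CPM at 7 dpi, against 162 and 79.9 CPM at 3 dpi (-3.86, SE 0.38, adjusted p = 5.07e-05), and in control at 50.0 and 38.0 CPM. hcls1, a cytoskeletal adaptor of blood cells, fell by 4.42 (SE 0.36). ptprc and hcls1 were thus below their control levels at 7 dpi, and both passed against control.

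Neutrophil markers had the lowest median of all lists, -3.39, or -2.92 with genes at their bound, with 21 of 31 lower and 2 higher. The list shares adam8a, mmp9, mmp13a, mmp25b and timp2b with the protease list, and all of these fell, so the results of the lists overlap. csf3r, the receptor for granulocyte colony-stimulating factor, had 1 count in all at 7 dpi, against 953 at 3 dpi, a ratio of 3 dpi to 7 dpi of 599.7 (107.4 to 23710). timp2b, a metalloproteinase inhibitor on the list, stood at 8.40 and 8.13 CPM at 7 dpi, against 454 and 129 CPM at 3 dpi (-5.14, SE 0.53; -3.98 without 3 dpi replicate 1 and -5.79 without replicate 2). The defining genes mpx and lyz, chosen after their values were seen, differed. mpx, myeloperoxidase, was at 2.65 and 0.747 CPM at 7 dpi, against 30.1 and 26.0 CPM at 3 dpi (-4.06, SE 0.62; -5.22 without 7 dpi replicate 1 and -3.42 without replicate 2). Its control level was 49.4 and 15.7 CPM, so the 3 dpi values of mpx lay within the control range. lyz, lysozyme, was at 36.2 and 17.4 CPM at 7 dpi, against 32.3 and 33.4 CPM at 3 dpi, and did not pass (-0.29, SE 0.41; 0.12 without 7 dpi replicate 2 and -0.91 without replicate 1). In control lyz stood at 205 and 99.0 CPM. srgn, a proteoglycan of blood cell granules, did not pass at 384 and 384 CPM at 7 dpi, against 363 and 336 CPM at 3 dpi (0.14, SE 0.23), and was -1.56 under library totals.

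**Figure D4:**
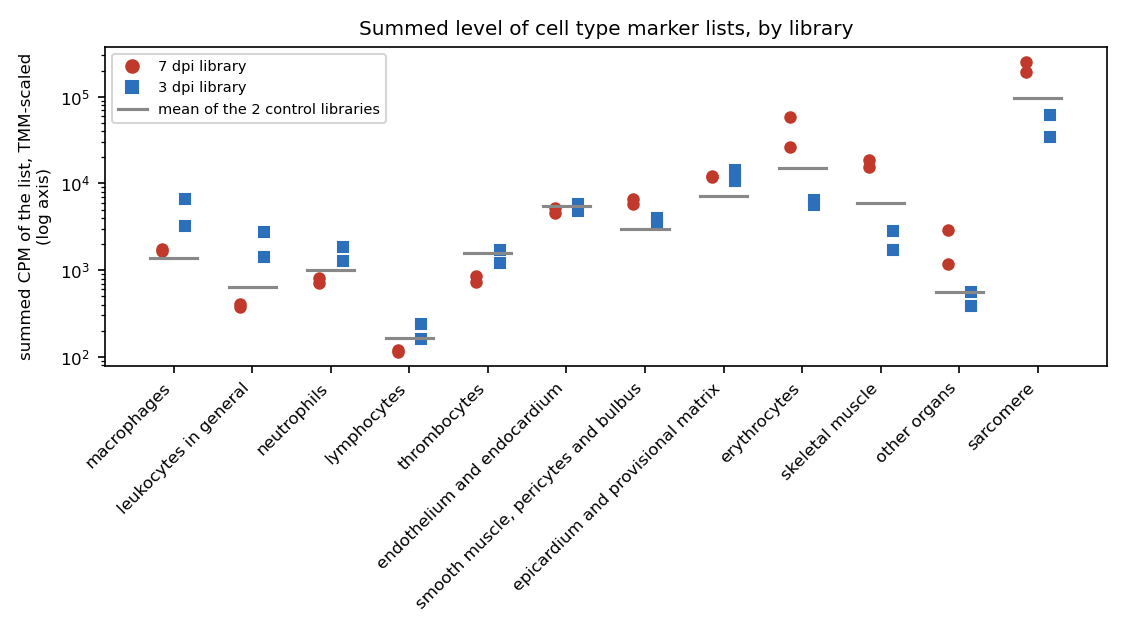
Each point is the summed CPM of a marker list in 1 library on a log axis, circles for 7 dpi and squares for 3 dpi, with a grey line at the control mean. The macrophage sums are 1661 and 1730 CPM at 7 dpi, against 6627 and 3265 CPM at 3 dpi, while erythrocyte and skeletal muscle sums are higher at 7 dpi. By far the most abundant skeletal muscle members at 7 dpi are ckma and eno3, which the list shares with heart muscle.

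Lymphocyte, interferon and lysosome genes also fell more often than they rose. Of 37 lymphocyte markers 15 fell, or 9 without 3 dpi replicate 1, and 5 rose (median -1.74, or -1.65 at the bounds). il2rb, an interleukin 2 receptor subunit gene, stood at 1.00 and 0.083 CPM at 7 dpi, against 20.1 and 14.3 CPM at 3 dpi (-5.01, SE 0.68; -4.11 without 7 dpi replicate 2, while 1 count is left at 7 dpi without replicate 1). cd247, of the T cell receptor complex, rose to 32.7 and 26.5 CPM at 7 dpi, against 5.78 and 5.19 CPM at 3 dpi (2.43, SE 0.39), a call lost under library totals (0.73). In the interferon list 27 of 41 fell and 2 rose, median -1.72. stat2 stood at 24.4 and 29.1 CPM at 7 dpi, against 174 and 152 CPM at 3 dpi (-2.61, SE 0.22), and stat1a fell by 2.61 (SE 0.27). These 2 factors carry the interferon signal to the nucleus. Their control levels, 125 and 140 CPM for stat2, were near the 3 dpi level. Of 66 lysosomal genes 33 fell and 5 rose, median -1.02, or -0.42 without 3 dpi replicate 1. ctsc, the protease cathepsin C, stood at 28.7 and 33.2 CPM at 7 dpi, against 470 and 229 CPM at 3 dpi (-3.50, SE 0.33; -2.90 without 3 dpi replicate 1). psap, a lysosomal lipid-binding precursor, stood at 834 and 711 CPM at 7 dpi, against 1538 and 944 CPM at 3 dpi and did not pass (-0.68, SE 0.29, adjusted p = 0.0712). It passed with DESeq2 (-0.66, adjusted p = 0.031) and without 3 dpi replicate 2 (adjusted p = 0.016). Antigen presentation genes had 11 of 30 lower and 2 higher, median -0.34, which was 0.03 without 3 dpi replicate 1. Complement and acute phase genes had 9 of 29 lower (31%, against 28.1% over all genes) and 4 higher (13.8%, against 22.8%). Their median was -0.70 (-0.40 at the bounds), between -1.32 and 0 with a library left out. Complement factor cfd rose to 896 and 926 CPM at 7 dpi, against 179 and 145 CPM at 3 dpi (2.49, SE 0.32). c7a fell by 2.59 (SE 0.29) and c1s by 1.71 (SE 0.25), and cfh had 1 count at 7 dpi, against 467 at 3 dpi. The list members c3a.6, a2ml, cfhl4 and an hp entry had 0 counts in all adult libraries.

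Vessel and smooth muscle genes moved both ways. Of 59 endothelial and endocardial genes, 25 fell (42.4%, against 28.1% over all genes) and 14 rose (23.7%, against 22.8%), median -0.37. sele, the adhesion molecule E-selectin of activated endothelium, stood at 55.4 and 41.9 CPM at 7 dpi, against 338 and 553 CPM at 3 dpi (-3.19, SE 0.31, adjusted p = 4.71e-05), and in control at 90.2 and 66.4 CPM. The growth factor receptor gene kdr fell to 11.6 and 11.8 CPM at 7 dpi, against 110 and 116 CPM at 3 dpi (-3.27, SE 0.34). tek, the angiopoietin receptor, rose to 119 and 103 CPM at 7 dpi, against 32.0 and 42.5 CPM at 3 dpi (1.57, SE 0.21), and was -0.12 under library totals. Among 42 genes of smooth muscle and pericytes 13 fell (31%, against 28.1% over all genes) and 8 rose (19%, against 22.8%). Their median was -0.53 (-0.35 at the bounds). The contractile gene cnn1b, calponin, stood at 10.5 and 19.9 CPM at 7 dpi, against 161 and 90.3 CPM at 3 dpi (-3.04, SE 0.37). acta2, smooth muscle actin, stood at 988 and 1180 CPM at 7 dpi, against 234 and 244 CPM at 3 dpi (2.18, SE 0.34), and in control at 89.8 and 41.9 CPM. Its rise did not pass under library totals (0.49). Thrombocyte markers fell in 8 of 16 (50%, against 28.1% over all genes) and rose in 3 (18.8%, against 22.8%), median -1.04, and moved both ways. itgb3b, of the fibrinogen receptor, fell by 4.77 (SE 0.56), and by 5.36 without 7 dpi replicate 1. gp9 and gp1bb instead rose, by 1.15 (SE 0.27) and 0.91 (SE 0.27). Under library totals the sign of gp9 turned, and gp1bb was also lower at 7 dpi. itga2b did not pass (-0.46, SE 0.29).

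Cell cycle genes were mostly lower at 7 dpi, and the difference was smaller without 3 dpi replicate 1. Of 110 tested, 62 fell and 9 rose, median -1.61, against -0.21 over all genes. Without 3 dpi replicate 1, 31 fell and the median was -0.85. anln, anillin of the cytokinetic ring, stood at 1.83 and 1.24 CPM at 7 dpi, against 39.9 and 20.1 CPM at 3 dpi (-4.29, SE 0.47, adjusted p = 7.70e-05), and in control at 8.27 and 4.01 CPM. uhrf1, of DNA methylation at replication, fell to 2.83 and 3.82 CPM at 7 dpi, against 26.0 and 22.3 CPM at 3 dpi (-2.86, SE 0.36). mki67, the proliferation antigen, chosen after its values were seen, was at 1.64 and 4.90 CPM at 7 dpi, against 71.6 and 16.2 CPM at 3 dpi (-3.73, SE 0.78; -2.31 and -4.44 without 3 dpi replicate 1 or 2, and -4.75 without 7 dpi replicate 2). The summed list was 953.1 and 1022 CPM at 7 dpi, against 1972 and 1063 CPM at 3 dpi. In that sum 3 dpi replicate 2 was near the 7 dpi level. Its anln, uhrf1 and mki67 values still lay above those of both 7 dpi libraries. cdk4, a kinase of the G1 phase, rose to 66.6 and 46.5 CPM at 7 dpi, against 17.2 and 12.4 CPM at 3 dpi (1.93, SE 0.27), a call lost under library totals (0.22).

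Among transporters of amino acids, more fell than rose. Of 46 genes 21 fell and 8 rose, median -1.70 (-1.19 at the bounds), and between 3 and 5 rose without 3 dpi replicate 1 or either 7 dpi library. slc43a2b (ENSDARG00000061120), which encodes a carrier for leucine and its relatives, stood at 2.1 and 3.57 CPM at 7 dpi, against 163 and 87.9 CPM at 3 dpi (-5.46, SE 0.41, adjusted p = 2.50e-05), and in control at 2.38 and 3.18 CPM. slc7a7, of cationic amino acid exchange and also on the macrophage list, stood at 5.39 and 6.64 CPM at 7 dpi, against 146 and 75.3 CPM at 3 dpi (-4.20, SE 0.36). slc38a9, the lysosomal arginine sensor of mTOR complex 1, stood at 4.29 and 2.07 CPM at 7 dpi, against 39.0 and 45.2 CPM at 3 dpi (-3.73, SE 0.36; -4.34 without 7 dpi replicate 1). The transporter gene slc1a3a, of glutamate, rose by 1.57 (SE 0.29), and was -0.14 under library totals. Macrophage markers fell in the same libraries, with summed levels of 1661 and 1730 CPM at 7 dpi, against 6627 and 3265 CPM at 3 dpi. Their part in the transporter result was not tested.

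The mTOR list was balanced and had a median of 0.07. It had 25 of 78 genes higher (32.1%, against 22.8% over all genes) and 22 lower (28.2%, against 28.1%). Scaled to library totals, 4 of these rose and 63 fell, and the median was -1.62. Several of its members that rose are known to restrain translation. The part of protein size in these genes, raised below for other lists, was not tested. eif4ebp3, a repressor of the cap-binding factor eIF4E, stood at 134 and 106 CPM at 7 dpi, against 10.8 and 6.75 CPM at 3 dpi (3.78, SE 0.35, adjusted p = 4.26e-05), and in control at 18.8 and 36.2 CPM. Its relative eif4ebp3l rose by 2.31 (SE 0.25) and eif4ebp1 by 2.13 (SE 0.23), for eif4ebp1 a call lost under library totals (0.44), and akt1s1, a component that inhibits mTOR complex 1, by 2.30 (SE 0.24). The kinase gene rps6kb1a, a target of mTOR complex 1, fell to 9.04 and 8.30 CPM at 7 dpi, against 24.6 and 26.1 CPM at 3 dpi (-1.55, SE 0.22), and pik3ca, a catalytic subunit of PI3 kinase, fell by 4.17 (SE 0.49).

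Stress and synthesis genes also moved both ways. Of 53 genes of the integrated stress and unfolded protein responses, 23 fell (43.4%, against 28.1% over all genes). Fewer fell without 3 dpi replicate 1. The 12 that rose were 22.6%, against 22.8%, and the median was -0.60 (-0.46 at the bounds). ddit3, the transcription factor CHOP, stood at 1.00 and 0.249 CPM at 7 dpi, against 42.2 and 42.2 CPM at 3 dpi (-6.09, SE 0.53; -5.40 without 7 dpi replicate 2, while 3 counts are left at 7 dpi without replicate 1), and in control at 35.3 and 16.2 CPM. asns, asparagine synthetase, fell to 9.41 and 6.06 CPM at 7 dpi, against 40.4 and 32.2 CPM at 3 dpi (-2.23, SE 0.27), and the chaperone gene hyou1 fell by 2.27 (SE 0.30). chac1, of glutathione breakdown, instead rose to 1291 and 1749 CPM at 7 dpi, against 179 and 175 CPM at 3 dpi (3.10, SE 0.28). xbp1, a transcription factor of the unfolded protein response, rose by 1.44 (SE 0.25), a value that became -0.26 under library totals. Genes on the aminoacyl-tRNA synthetase list were called about as often as all genes, with a median of -0.17. Of 22, 5 were higher (22.7%, against 22.8% over all genes) and 7 lower (31.8%, against 28.1%). Among the 5 were aimp1 and aimp2, which are on the list but are not synthetases. They had the largest rises of the list, 1.73 (SE 0.29) and 1.55 (SE 0.26). kars, of lysine, rose to 588 and 428 CPM at 7 dpi, against 259 and 250 CPM at 3 dpi (1.00, SE 0.30, adjusted p = 0.0169). It was -0.71 under library totals and no longer passed without 7 dpi replicate 1 (adjusted p = 0.136) or without either 3 dpi library (adjusted p = 0.0563 and 0.0623).

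Genes of both ribosomes rose without an exception in this fit. All 77 cytosolic ribosomal protein genes rose, median 2.65. Their libraries did not overlap in any of the 77, whereas 73.1% of all genes did not overlap. rps28 (ENSDARG00000035860) stood at 5041 and 3798 CPM at 7 dpi, against 220 and 219 CPM at 3 dpi (log2 fold change 4.33, SE 0.37, adjusted p = 3.43e-05), and in control at 255 and 418 CPM. rpsa, of the small subunit, stood at 12490 and 10476 CPM at 7 dpi, against 1939 and 1863 CPM at 3 dpi (2.59, SE 0.37). Under library totals 56 of the 77 still rose and 0 fell, median 0.94. All 74 mitochondrial ribosome genes rose, median 2.15. On library totals that median was 0.46, and 29 rose while 1 fell. mrpl57, of its large subunit, stood at 236 and 176 CPM at 7 dpi, against 20.6 and 22.1 CPM at 3 dpi (3.27, SE 0.30). Translation factors rose in 39 of 51 and fell in 4 (median 1.22), although on library totals 10 rose, 22 fell and the median was -0.48. eef1da, an elongation factor subunit, stood at 1930 and 1206 CPM at 7 dpi, against 130 and 145 CPM at 3 dpi (3.51, SE 0.37), while the initiation factor scaffold eif4g1a fell by 1.61 (SE 0.23). Assembly factors of the ribosome did not follow, with 22 of 97 higher (22.7%, against 22.8% over all genes) and 19 lower (19.6%, against 28.1%). Their median was 0.13, or -1.57 on library totals. The number that rose was 14 without 7 dpi replicate 1 or either 3 dpi library. gnl3, nucleostemin of the nucleolus, fell to 12 and 12.9 CPM at 7 dpi, against 41.9 and 39.9 CPM at 3 dpi (-1.71, SE 0.23).

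Respiratory chain genes showed the same uniform rise. Of 87 nuclear genes of oxidative phosphorylation, 86 rose and 0 fell, median 3.02. On library totals that median was 1.33, and 64 rose while 1 fell. ndufs5, of complex I, stood at 1108 and 1069 CPM at 7 dpi, against 33.1 and 47.3 CPM at 3 dpi (4.76, SE 0.34, adjusted p = 2.50e-05), and in control at 71.2 and 104 CPM. atp5b, the catalytic subunit of ATP synthase, stood at 8064 and 5498 CPM at 7 dpi, against 1338 and 2082 CPM at 3 dpi (1.99, SE 0.36), and in control at 3382 and 4062 CPM. Its rise did not pass under library totals (0.29). All 13 mitochondrially encoded genes tested rose, median 3.45, or 1.78 under library totals. mt-co1, a core subunit of cytochrome oxidase, stood at 115458 and 117677 CPM at 7 dpi, against 16232 and 22020 CPM at 3 dpi (2.61, SE 0.49). Many nuclear members of these lists encode small proteins, and the list of small proteins outside both systems rose too, in 86 of 119 genes with 5 lower (median 1.45, or -0.23 under library totals). The part of that property in the ribosomal and respiratory results was not tested.

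**Figure D5:**
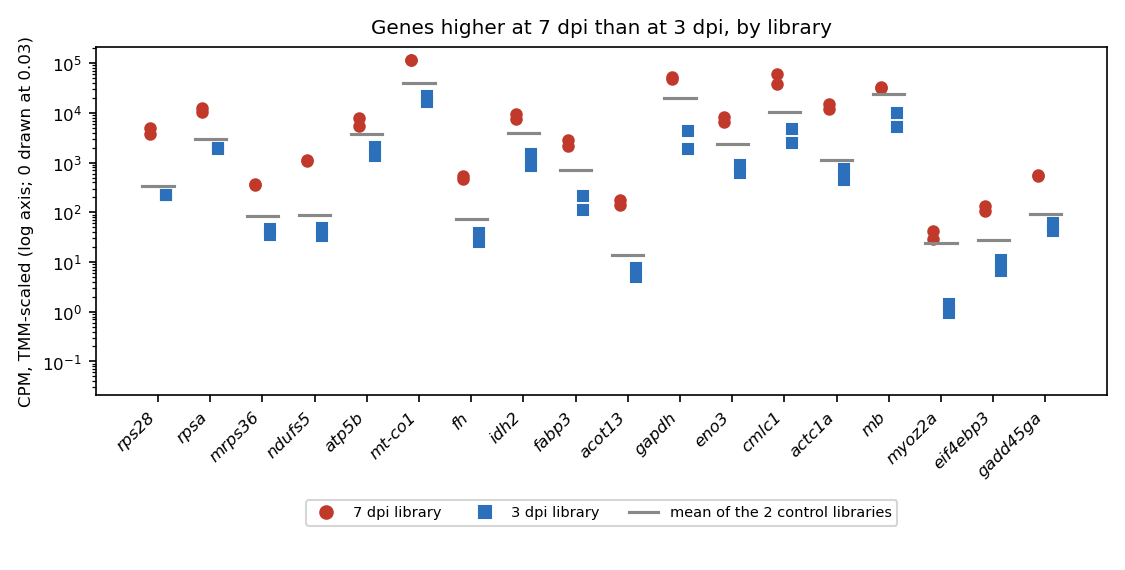
Each point is the CPM of 1 gene in 1 library on a log axis, circles for 7 dpi and squares for 3 dpi, with a grey line at the control mean. All 18 genes are higher in both 7 dpi libraries than in both 3 dpi libraries, and rps28, at 5041 and 3798 CPM at 7 dpi, also lies above its control mean.

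Enzymes that feed the respiratory chain rose in most cases. Of 38 genes of the citric acid cycle and pyruvate entry, 24 rose and 5 fell (median 1.51), although under library totals 10 rose and 15 fell. fh, fumarase, stood at 536 and 460 CPM at 7 dpi, against 25.7 and 38.9 CPM at 3 dpi (3.94, SE 0.28, adjusted p = 2.50e-05), and in control at 68.9 and 79.7 CPM. idh2, isocitrate dehydrogenase of mitochondria, stood at 9652 and 7585 CPM at 7 dpi, against 860 and 1525 CPM at 3 dpi (2.85, SE 0.41). In fatty acid uptake and oxidation 35 of 58 rose and 5 fell, median 1.31, although on library totals 18 rose, 24 fell and the median was -0.38. fabp3, the fatty acid binding protein of heart, stood at 2910 and 2170 CPM at 7 dpi, against 113 and 211 CPM at 3 dpi (3.97, SE 0.41), and in control at 536 and 910 CPM. pparg, a transcription factor of lipid storage, fell to 1.00 and 1.58 CPM at 7 dpi, against 21.6 and 14.1 CPM at 3 dpi (-3.78, SE 0.42).

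Glycolysis genes moved both ways, with falls below the all-gene share. Of 50 genes 25 rose (50%, against 22.8% over all genes) and 11 fell (22%, against 28.1%). Their median was 0.87, although on library totals 7 rose, 28 fell and the median was -0.83. gapdh stood at 52136 and 47520 CPM at 7 dpi, against 1869 and 4407 CPM at 3 dpi (3.99, SE 0.55; 4.73 without 3 dpi replicate 2). The muscle enolase gene eno3 stood at 8427 and 6671 CPM at 7 dpi, against 610 and 892 CPM at 3 dpi (3.33, SE 0.36). The genes that fell included hexokinase hk2, at 9.77 and 7.55 CPM at 7 dpi, against 83.8 and 36.2 CPM at 3 dpi (-2.79, SE 0.42; -2.08 without 3 dpi replicate 1). pfkfb3, which drives phosphofructokinase, fell to 10.9 and 11.4 CPM at 7 dpi, against 61.3 and 52.1 CPM at 3 dpi (-2.35, SE 0.21). In control hk2 stood at 9.26 and 4.66 CPM and pfkfb3 at 27.8 and 23.2 CPM.

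Sarcomere genes rose in 30 of 66 (45.5%, against 22.8% over all genes) and fell in 12 (18.2%, against 28.1%). Their median was 0.67 (0.71 at the bounds), although on library totals 11 rose, 35 fell and the median was -0.89. cmlc1, whose values are given above, rose by 3.77 (SE 0.53, adjusted p = 0.000279), and in control stood at 7972 and 12716 CPM. The cardiac actin gene actc1a stood at 15013 and 11757 CPM at 7 dpi, against 456 and 743 CPM at 3 dpi (4.48, SE 0.41), and in control at 968 and 1281 CPM. myoz2a, a Z disc gene, stood at 42.5 and 28.5 CPM at 7 dpi, against 0.925 and 1.45 CPM at 3 dpi (4.88, SE 0.35), and in control at 22.9 and 26.4 CPM. Other members went the other way. ankrd1a, a stress-responsive muscle ankyrin repeat gene, stood at 1.74 and 7.88 CPM at 7 dpi, against 292 and 194 CPM at 3 dpi (-5.64, SE 0.53; -7.14 without 7 dpi replicate 2 and -4.94 without replicate 1), and in control at 0.573 and 0.590 CPM. xirp1, of muscle attachment sites, fell to 58.1 and 65.9 CPM at 7 dpi, against 515 and 885 CPM at 3 dpi (-3.50, SE 0.32), below its control level of 258 and 180 CPM. Several sarcomere members that fell, such as xirp1, xirp2a and cmya5, encode very large proteins, and giant proteins outside the sarcomere fell in 79 of 127 genes with 1 higher (median -1.30, or -1.21 at the bounds). Its part in the sarcomere result was not tested.

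The atrial and ventricular myosins, chosen after their values were seen, differed. vmhcl, the paralog of vmhc, stood at 32871 and 21352 CPM at 7 dpi, against 4342 and 7376 CPM at 3 dpi (2.21, SE 0.45, adjusted p = 0.00222), a call lost under library totals (0.52). myh6, the atrial myosin gene, stood at 494 and 465 CPM at 7 dpi, against 1901 and 5043 CPM at 3 dpi (-2.86, SE 0.57; -2 without 3 dpi replicate 2). Its control level was also unequal, at 2878 and 942 CPM. The sources used here do not say how reads shared by these paralogs were counted.

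Cardiac transcription factors and stress genes were even, with 14 of 47 higher (29.8%, against 22.8% over all genes) and 14 lower (29.8%, against 28.1%). Their median was -0.15, or -1.82 under library totals, where 1 was higher and 32 lower. mb, myoglobin, stood at 33829 and 31911 CPM at 7 dpi, against 5207 and 9749 CPM at 3 dpi (2.14, SE 0.45, a call lost under library totals at 0.46), and in control at 23397 and 25108 CPM. The natriuretic peptide genes, chosen after their values were seen, were lower. nppb stood at 720 and 824 CPM at 7 dpi, against 1839 and 1289 CPM at 3 dpi (-1.02, SE 0.27, adjusted p = 0.00872), a call lost without 7 dpi replicate 1 (-0.93, adjusted p = 0.0775), and in control at 231 and 258 CPM. nppa stood at 1745 and 1382 CPM at 7 dpi, against 2511 and 3795 CPM at 3 dpi (-1.01, SE 0.31, adjusted p = 0.020), a call lost without 7 dpi replicate 1 or 2 (adjusted p = 0.06 and 0.146) and without 3 dpi replicate 2 (-0.69, adjusted p = 0.0995). Calcium handling and ion channel genes had 10 of 41 higher (24.4%, against 22.8% over all genes) and 11 lower (26.8%, against 28.1%). Their median was -0.25 (0.14 at the bounds). atp2a2a, the calcium pump of the sarcoplasmic reticulum, stood at 5850 and 4825 CPM at 7 dpi, against 1371 and 2745 CPM at 3 dpi (1.37, SE 0.37, adjusted p = 0.0106). That call was lost without 7 dpi replicate 1 (1.23, adjusted p = 0.0646) and without 3 dpi replicate 1 (0.94, adjusted p = 0.0552), and the sign turned under library totals (-0.31). Its paralog atp2a2b fell to 35.3 and 36.3 CPM at 7 dpi, against 132 and 117 CPM at 3 dpi (-1.80, SE 0.25).

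Immediate early and heat shock genes were called about as often as all genes. Of 63, 17 rose (27%, against 22.8% over all genes) and 16 fell (25.4%, against 28.1%), or 10 fell without 7 dpi replicate 2, median -0.01. On library totals 3 rose, 48 fell and the median was -1.69. fosl1a, an AP-1 component, stood at 2.65 and 1.41 CPM at 7 dpi, against 53.0 and 50.0 CPM at 3 dpi (-4.67, SE 0.34, adjusted p = 2.50e-05), and did not pass against control (adjusted p = 0.72). Its relative fosl2 fell to 7.58 and 13.1 CPM at 7 dpi, against 242 and 163 CPM at 3 dpi (-4.29, SE 0.35). gadd45ga, a growth arrest gene, stood at 550 and 555 CPM at 7 dpi, against 41.5 and 60.9 CPM at 3 dpi (3.43, SE 0.26), and in control at 90.9 and 91.4 CPM. Proteasome subunits rose in 13 of 43 and fell in 2 (median 0.37), whereas under library totals 0 rose and 40 fell, and between 3 and 8 rose with a library left out. Clock genes were 12 of 39 higher (30.8%, against 22.8% over all genes) and 11 lower (28.2%, against 28.1%). Their median was 0.24, or -1.44 under library totals. Without 7 dpi replicate 2 the clock list had 6 higher and a median of -0.02, without 3 dpi replicate 1 it had 7 higher, and without 3 dpi replicate 2 it had 7 lower. Among those that rose was nr1d1, a repressor of the clock, by 2.06 (SE 0.22), a call lost under library totals (0.37). Hypoxia genes were 11 of 41 higher (26.8%, against 22.8% over all genes) and 13 lower (31.7%, against 28.1%). Their median was -0.03, or -1.75 under library totals. bnip3, of mitochondrial autophagy, rose to 108 and 86.5 CPM at 7 dpi, against 16.7 and 19.6 CPM at 3 dpi (2.42, SE 0.22), which is close to its control level of 87.3 and 86.8 CPM.

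Signalling families showed single genes rather than a shift of the list. In the TGF beta and BMP list 23 of 67 fell (34.3%, against 28.1% over all genes) and 14 rose (20.9%, against 22.8%), median -0.28. The type II receptors moved apart: tgfbr2a fell to 2.47 and 1.83 CPM at 7 dpi, against 82.4 and 69.1 CPM at 3 dpi (-5.14, SE 0.33, adjusted p = 2.12e-05), and tgfbr2b rose to 187 and 207 CPM at 7 dpi, against 47.1 and 59.6 CPM at 3 dpi (1.88, SE 0.24), a call lost under library totals (0.20). The ligand gene tgfb1a fell by 1.95 (SE 0.22). Notch genes were 11 of 34 lower (32.4%, against 28.1% over all genes) and 6 higher (17.6%, against 22.8%). Their median was -0.51 (-0.30 at the bounds). The receptor gene notch2 fell by 2.00 (SE 0.25), while list members her9 and hey2 rose by 2.27 (SE 0.21) and 2.62 (SE 0.37). nrarpb, a target that feeds back on the pathway, fell by 2.99 (SE 0.52, or -2.40 and -4.08 without 7 dpi replicate 1 or 2). Its more abundant paralog nrarpa, chosen after its values were seen, did not pass (0.26, SE 0.22). nrarpa stood at 64.5 and 88.2 CPM at 7 dpi, against 59.0 and 68.3 CPM at 3 dpi. Wnt genes were 12 of 61 lower (19.7%, against 28.1% over all genes) and 11 higher (18%, against 22.8%). Their median was 0 (0.17 at the bounds). Without 7 dpi replicate 1 and without 3 dpi replicate 1 the number of Wnt genes that rose was 6 and 7, and without 7 dpi replicate 2 the number that fell was 6. The inhibitor gene dkk1b fell to 0.365 and 0.332 CPM at 7 dpi, against 7.92 and 6.28 CPM at 3 dpi (-4.32, SE 0.46), and the inhibitor gene wif1 rose to 8.95 and 10.5 CPM at 7 dpi, against 2.78 and 3.89 CPM at 3 dpi (1.54, SE 0.27), a value that became -0.14 under library totals. Neuregulin and ErbB genes were 9 of 25 lower and 2 higher, median -0.47 (-0.26 at the bounds), and the receptor gene egfra fell by 2.68 (SE 0.32).

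Among markers of blood, skeletal muscle and other organs, more rose than fell at 7 dpi, some mainly in 1 library. Of 38 erythrocyte genes 23 rose, or 15 without 7 dpi replicate 2, and 7 fell (median 1.48). Under library totals 8 rose and 13 fell, and the median was 0. The summed level was 26530 and 58110 CPM at 7 dpi, against 5609 and 6409 CPM at 3 dpi, and in control 9325 and 20530 CPM. hbaa1, an adult alpha globin gene, stood at 7784 and 18631 CPM at 7 dpi, against 642 and 841 CPM at 3 dpi (4.16, SE 0.69; 3.38 without 7 dpi replicate 2). Among the 7 that fell were tfr1a (-2.85, SE 0.46), epor (-1.92, SE 0.27) and klf1 (-1.35, SE 0.26). slc4a1a did not pass (0.33, SE 0.42). Of 34 skeletal muscle genes 19 rose and 2 fell, median 2.40 (1.73 at the bounds), or 1.56 without 3 dpi replicate 1 and 1.77 without 7 dpi replicate 1. The list shares ckma and eno3 with heart muscle: ckma, a creatine kinase, stood at 9111 and 7818 CPM at 7 dpi, against 469 and 1104 CPM at 3 dpi (3.43, SE 0.44; 4.16 without 3 dpi replicate 2). pvalb3, a parvalbumin of fast muscle, had 309 counts at 7 dpi, against 2 at 3 dpi, a ratio of 245.5 (67.4 to 2037), at 18.4 and 8.96 CPM at 7 dpi. Counts were present for 28 and 28 of 41 list members at 7 dpi, against 29 and 31 at 3 dpi. The defining skeletal myosin genes smyhc1, myhz1.1 and myhz2, chosen after values were seen, had 0 counts in both 7 dpi libraries. They had only 4, 2 and 0 counts in all at 3 dpi and 2, 0 and 0 in control. Their absence therefore does not set 7 dpi apart. Other fast muscle genes rose, such as mylpfa, by 4.66 (SE 0.73), and tnnt3b, by 3.77 (SE 0.57). The 2 that fell were acta1a, an actin gene, and neb (-1.40, SE 0.47). acta1a stood at 159 and 175 CPM at 7 dpi, against 399 and 584 CPM at 3 dpi (-1.56, SE 0.43).

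Of 44 markers of other organs 14 rose (31.8%, against 22.8% over all genes) and 5 fell, or 2 to 3 fell with a library left out, median 0.34 (0.67 at the bounds) and -0.75 under library totals. epcam, an epithelial adhesion gene, stood at 33.2 and 28.8 CPM at 7 dpi, against 0 and 0.208 CPM at 3 dpi (8.06, SE 0.52, adjusted p = 2.12e-05; 7.16 without 3 dpi replicate 1, while 0 counts are left at 3 dpi without replicate 2). ctrb1, the pancreatic enzyme chymotrypsinogen, stood at 506 and 149 CPM at 7 dpi, against 1.45 and 4.36 CPM at 3 dpi (6.80, SE 0.86; between 5.67 and 7.81 with a library left out). The keratin genes krt97 and krt5 were led by 7 dpi replicate 1. krt97 had 1558 and 241 counts at 7 dpi, against 0 and 0 counts at 3 dpi, which is at least 953.0-fold higher when the 3 dpi group is set to 3 counts in all. krt5 stood at 1356 and 63.5 CPM at 7 dpi, against 0.405 and 6.33 CPM at 3 dpi (7.70, SE 1.59; 4.21 without 7 dpi replicate 1 and 10.74 without 3 dpi replicate 2). The summed level of the other-organ list was 2907 and 1169 CPM at 7 dpi, against 564.3 and 385.3 CPM at 3 dpi. Counts were present for 34 and 34 of 56 members at 7 dpi, against 35 and 41 at 3 dpi. The part of non-cardiac tissue in the other results was not tested.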

How the data were processed

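Per the labels' protocols, RNA was isolated with TRIzol and sequenced on an Illumina HiSeq instrument. Per the submitters' processing notes, reads were handled with TopHat2 2.0.13 and HTSeq on GRCz10. The sources used here give neither the annotation release nor the strand setting. The authors deposited raw counts per gene, and a table of RPM, whose values equal the scaled count over library total; it served for gene symbols and for the limma alternative. Here 19330 of 31953 genes passed edgeR's expression filter, set over all 4 groups. With adult libraries only, 16773 passed. Some genes tested, such as myhz2, thus had 0 counts in all adult libraries and stand at a log2 fold change of 0. All 8 libraries entered 1 edgeR 4.0.16 quasi-likelihood fit (R 4.3.3) with a term per group, TMM scaling and Benjamini-Hochberg adjustment over all genes tested, with 4 residual degrees of freedom. A gene was called at an adjusted p under 0.05. With 2 against 2 libraries an exact permutation test cannot go below 0.333. Genes with 0 counts in a group are given as bounds against 3 counts over the group, and with 1 to 3 counts as a ratio with a 95% counting interval. Counts for 7 dpi against 3 dpi were simulated over 19330 genes, with 100 genes changed at each fold. There the test called 13% of genes changed 2-fold and 74% of genes changed 4-fold. Far more genes differed in the data, so these rates are for the simulated setting only.

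Genes were named as vmhc, then 12 rises and 12 falls of greatest size among called symbols of at least 10 CPM without overlap, and, per list, the 4 called members with the smallest p in each direction and the one with the highest mean CPM in either group. The text prints a part of them, chosen with their values known. The comparison and the lists were chosen with earlier results of these data known. The alternatives were other scalings and filters, DESeq2 1.42.0, limma 3.58.1 on log2(RPM + 1), fewer groups, thinned counts, the replicate block and leaving out each library. A result that met the naming rule is not reported here.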

Additional observations from a re-analysis of the deposited data

How the results depend on the processing

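The number of called genes, 9840, lay between 8571 and 10246 under DESeq2, the other edgeR scalings by composition, the filters, thinned counts and fits with fewer groups, and between 7911 and 8615 with 1 library left out. No called gene turned to a call of the opposite sign in any of these. Scaling to library totals gave 13936 calls and limma on log2(RPM + 1), which also uses library totals, gave 13513, with 983 and 1032 genes called in the opposite direction. The share of calls that rose was 6.2% and 6.45% in these, against 44.8%, and 44% to 46.5% with a library left out. Of 213 genes followed, 20 changed sign under library totals. In the order library totals, then limma, their log2 fold changes were -0.06 and -0.09 for sparc, -1.46 and -1.46 for b2m, -0.71 and -0.71 for kars, -0.26 and -0.26 for xbp1, -0.31 and -0.24 for atp2a2a, -0.12 and -0.11 for tek, -0.10 and -0.01 for tagln, -1.56 and -1.55 for srgn, and -1.44 and -1.43 for ncl. They were -0.15 and -0.08 for hexa, -0.16 and -0.17 for aimp2, -0.14 and -0.18 for slc1a3a, -0.01 and -0.02 for psmb6, -0.54 and -0.55 for gp9, -0.14 and -0.11 for wif1, -0.72 and -0.69 for spock3, -0.13 and -0.14 for pcolcea, -1.57 and -1.55 for postnb, -0.58 and -0.61 for jak2a, and -1.35 and -1.28 for jak2b. Here the sign follows from the construction, since library totals lower every log2 fold change by a near-constant amount.

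vmhc, which did not pass with TMM scaling, was 0 with RLE scaling, 0.01 in the fit of the 2 groups and 0.02 in adults only. It was 0.10 without 7 dpi replicate 1, and lay between -0.43 and 0.51 with a library left out. Under library totals it was lower at 7 dpi. lyz lay between -0.91 and 0.12 and postnb between -0.03 and 0.27 with a library left out, and postnb was -0.01 without 7 dpi replicate 2. The causes were not tested. With the replicate number as a block, 9184 genes were called and vmhc was 0.01. Same-numbered 7 dpi and 3 dpi libraries did not deviate together (correlation -0.03 over genes). With 2 libraries per group this is a single correlation, which cannot show whether they share more than a number. Scaling by protein length was not run. Total counts were lower at 3 dpi than at 7 dpi, but TMM scaling reversed this. After scaling, 1 count stood for 0.0913 and 0.083 CPM at 7 dpi, against 0.0578 and 0.0519 CPM at 3 dpi. The simulation gave 91 calls, against 9840 in the data, so adjustment was stricter there and its 13% does not carry over. In the data csnk1db, of the clock list, was called at 0.55 (SE 0.21), but was lower at 7 dpi under library totals.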
